A study of Homo sapiens with 18 samples.

Results

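Cells of HepG2, an established line from a human hepatocellular carcinoma, that carried added thyroid hormone receptor TRβ1 were compared with HepG2 cells that carried the empty plasmid, both without added hormone. The groups compared hold 6 of the 18 arrays of the series, the 3 arrays of the TRβ1 pool on vehicle and the 3 arrays of the control pool on vehicle, with arrays of the same replicate number taken as a pair; the model that gave the test was fitted to all 18. All 20546 array features that carry a gene symbol were tested. Per the labels, the TRβ1 pool combined 12 independent clones that scored positive for the introduced construct and the control pool 11 clones with the empty plasmid. Another pool combined 6 clones with added TRα1. Both compared groups, like every other group, came from G418 co-selection and received vehicle or T3 over 6 h, with 10% hormone-stripped serum in the medium. The vehicle was ethanol, so the TRβ1 on these arrays had no T3 (triiodothyronine, the active thyroid hormone) added to it, and hormone left in the stripped serum was not measured. Separate arrays of the same pools on 100 nM T3 (3 each) and of the TRα1 pool on vehicle (3) served as further comparisons. There was 1 pool for each construct, so the receptor and the make-up of the pooled clones cannot be told apart, and p-values measure the spread between repeat cultures of one pool.

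Thyroid hormone receptors are nuclear receptors that sit on DNA response elements, mostly as heterodimers with RXR, whether or not hormone is present. At genes that T3 raises, the receptor without hormone is known to recruit corepressor complexes that hold histone deacetylases and to hold expression down. T3 exchanges the corepressors for coactivators. TRβ1 is the main receptor form of the liver, where it acts on cholesterol, bile acid, lipid and glucose metabolism and on DIO1, the deiodinase that converts thyroxine.

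The receptor genes themselves were read first. THRB, the gene for TRβ, stood at 6.97, 7.01 and 6.88 (log2 RMA expression, the scale of all levels here) in the 3 TRβ1 vehicle arrays, against 6.41, 6.90 and 6.63 in the 3 control vehicle arrays. The groups overlapped by a small margin, through replicate 3 of TRβ1 and replicate 2 of the control. The difference was 0.30 ± 0.11 (SE, n = 3 per group; log2, TRβ1 minus control), with an adjusted p of 0.332 in limma, and on the T3 arrays it was 0.35 ± 0.11 (adjusted p = 0.218). THRA, the gene for TRα, differed by 0.01 ± 0.13 (adjusted p = 0.991). Whether the probes of the THRB feature lie in the part of the transcript that the plasmid encodes is not given in the sources used here. It is therefore not known whether these values include the introduced receptor. The 12 measured hepatocyte markers, such as albumin and transferrin genes, had a median level of 11.9, and limma called 0 of them (2 were at an unadjusted p under 0.05, as were 10.8% of all features). Their mean level ranged from 10.7 to 10.8 in the TRβ1 vehicle arrays and from 10.6 to 10.8 in the control vehicle arrays. Mean levels of the endothelial markers ranged from 4.09 to 4.17 in the TRβ1 and from 4.16 to 4.31 in the control vehicle arrays, and those of the fibroblast and stellate markers from 4.74 to 4.83 in the TRβ1 and from 4.79 to 4.98 in the control vehicle arrays. Both lists had 0 members called in limma, with 2 endothelial and 1 stellate marker at an unadjusted p under 0.05.

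On vehicle, 151 features (0.735% of those tested) differed between the TRβ1 and the control pool with an adjusted p under 0.05 in limma with the replicate block. Of these, 104 (0.506%) were higher and 47 (0.229%) lower in the TRβ1 pool, and 141 stood for a single gene. The differences were mostly moderate, with a median of 0.62 on the log2 scale among the higher and -0.54 among the lower features. A difference of at least 1 was seen for 19 higher and 5 lower features. The smallest called differences were 0.31 and -0.31. Of the 151, 37 had a mean level below that of the median feature of the array. Every called feature differed in the same direction in 3 of 3 pairs (30.7% of all tested features did), and for 116 of the 151 the 3 values of one pool lay wholly outside those of the other (6.59% of all). A fit without the replicate block called 24 features (0.117%), of which 18 were higher and 6 lower, all of them among the 151. The count was 69, 72 and 81 without TRβ1 vehicle replicates 1, 2 and 3, and 99, 68 and 75 without control vehicle replicates 1, 2 and 3. It was 49 in a fit to only the 6 arrays compared, and 40, 33 and 27 without all arrays of replicate numbers 1, 2 and 3.

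SPINK1, a secreted trypsin inhibitor, had the largest increase. It stood at 9.85, 6.97 and 6.25 in the TRβ1 vehicle arrays, against 5.38, 3.50 and 3.90 in the control vehicle arrays. Every TRβ1 value was above every control value, although the replicates within a pool lay far apart, with replicate 1 the highest in both pools. The difference was 3.43 ± 0.36, a 10.7-fold change, with an adjusted p of 1.4e-04 in limma and of 0.783 without the replicate block. VCAN, the matrix proteoglycan versican, had 6.80, 7.44 and 6.87 in the TRβ1 pool, against 5.28, 5.16 and 5.17 in control arrays. Its groups were far apart next to their spread, and the difference of 1.83 ± 0.16 (3.57-fold) passed with and without the block (adjusted p = 4.1e-05 and 0.0013). UGT2B4, which glucuronidates bile acids and other lipids, had 9.83, 9.50 and 9.81 in the TRβ1 pool, against 8.60, 8.52 and 8.08 in the control pool. This difference of 1.31 ± 0.15 also passed either way (adjusted p = 2.4e-04, and 0.0018 without the block). UGT2B4 belongs to a family of similar genes, and a feature shared by 5 other members of it differed by 0.50 (adjusted p = 0.047).

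BAAT, which joins bile acids to glycine or taurine, had 6.77, 7.02 and 6.21 in the TRβ1 pool, against 5.63, 5.65 and 5.18 in the control pool. The groups did not overlap and the difference was 1.18 ± 0.11 (adjusted p = 7.4e-05 in limma, 0.308 without the block). SULT1C2, a cytosolic sulfotransferase, differed by 1.22 ± 0.12 (adjusted p = 8.1e-05, 0.080 without the block). CPED1 had the least spread among the large differences, with 6.77, 6.65 and 6.75 in the TRβ1 pool, against 5.82, 5.60 and 5.69 in the control pool. Its difference was 1.02 ± 0.08 (adjusted p = 3.1e-05, and 3.0e-04 without the block). PRKCH, the η form of protein kinase C, was higher by 1.09 ± 0.10, OLFML1 by 1.30 ± 0.12, KLHL13, a substrate adaptor of a cullin ubiquitin ligase, by 1.19 ± 0.13, HEPACAM, a cell adhesion protein, by 1.05 ± 0.12, and CHN1, a GTPase-activating protein for Rac, by 1.15 ± 0.15. These 5 passed with and without the block. OLFML1 stood below the array medians (5.31 to 5.49), with 5.25, 4.71 and 4.81 in the TRβ1 pool, against 3.87, 3.60 and 3.41 in the control pool. TUSC3, a subunit of the oligosaccharyltransferase of the endoplasmic reticulum, was higher by 1.07 ± 0.12 and ODAM, a secreted protein, by 1.06 ± 0.14. Their values overlapped between pools, and neither passed without the block (adjusted p = 1.0 for each). The replication-dependent histone genes H2BC12 and H2AC12 were higher by 2.42 ± 0.32 and 1.15 ± 0.20 (adjusted p = 0.0012 and 0.014, and 0.167 and 0.040 without the block). Histone genes have near-identical copies whose probes can share signal, so these 2 values are uncertain as to the gene, and a feature that lists H2BC12 with 3 other H2B genes differed by 1.16.

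**Figure D1:**
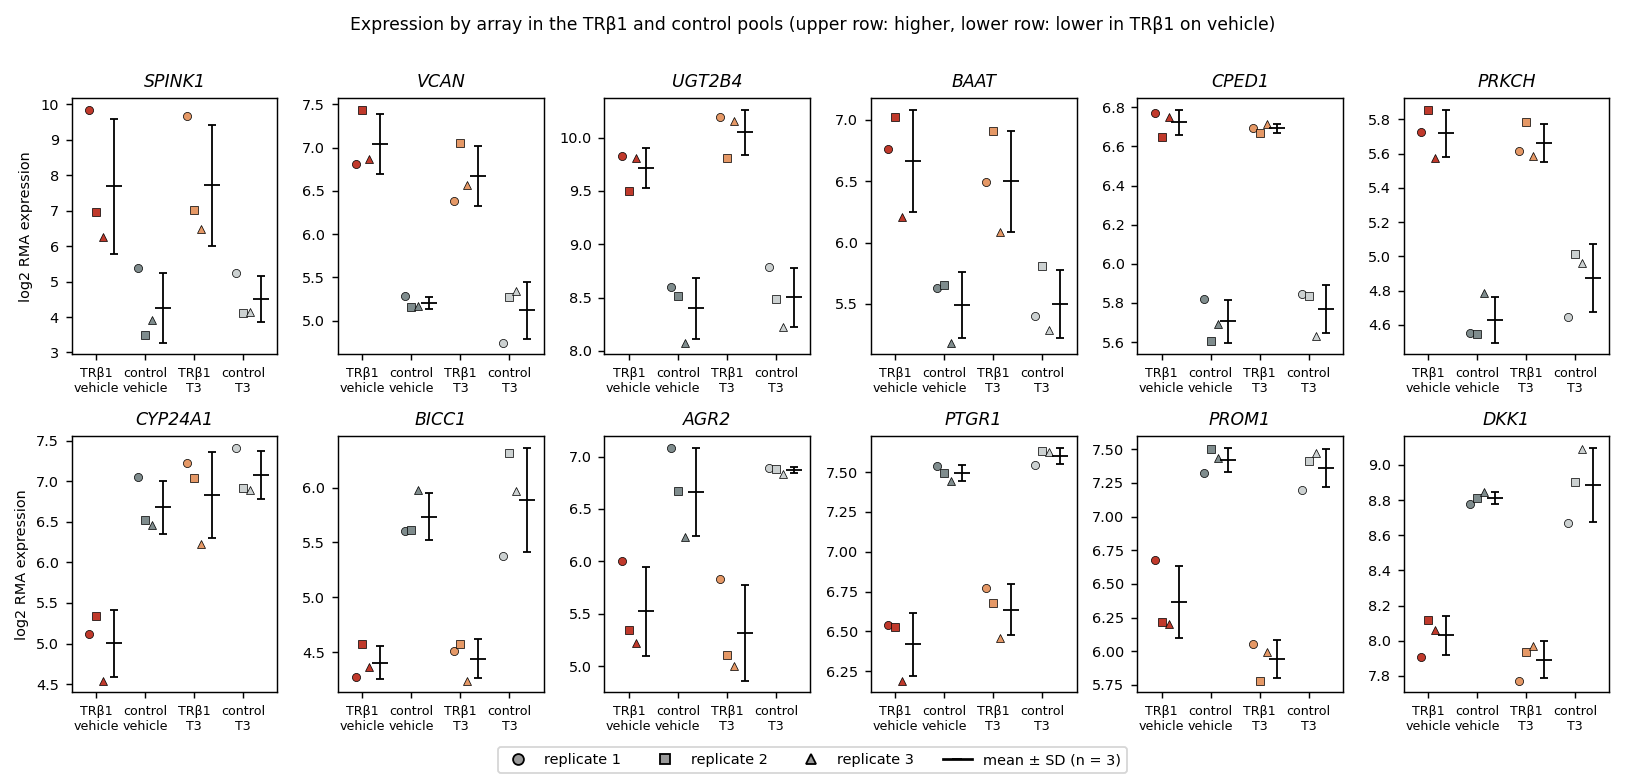
Log2 RMA expression of 6 genes higher (upper row) and 6 genes lower (lower row) in the TRβ1 pool on vehicle, in the TRβ1 and control pools on vehicle and on T3. Points are single arrays, shaped by replicate number, with the mean and SD of 3 beside them; CYP24A1 averaged 5.00 in TRβ1 vehicle arrays, 6.68 in control vehicle arrays, 6.83 in TRβ1 T3 arrays and 7.08 in control T3 arrays.

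CYP24A1 had the largest decrease. It encodes the enzyme that degrades active vitamin D, and it stood at 5.12, 5.34 and 4.54 in the TRβ1 vehicle arrays, against 7.05, 6.52 and 6.46 in the control vehicle arrays. All 3 TRβ1 values lay more than 1 log2 unit below the lowest control value. The difference was -1.68 ± 0.15, a level 3.20-fold lower, and it passed with and without the block (adjusted p = 4.8e-05 and 0.040). BICC1, an RNA-binding protein, had 4.27, 4.57 and 4.37 in the TRβ1 pool, against 5.61, 5.62 and 5.98 in the control pool. This was a difference of -1.33 ± 0.20 (adjusted p = 0.0048, and 0.024 without the block) with no overlap.

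PTGR1, a reductase of prostaglandins and leukotrienes, differed by -1.08 ± 0.11, at 6.54, 6.53 and 6.19 in the TRβ1 pool, against 7.54, 7.50 and 7.44 in the control pool. PROM1, a membrane glycoprotein used as a progenitor marker, had 6.67, 6.22 and 6.20 in the TRβ1 pool, against 7.32, 7.50 and 7.44 in the control pool. That was a difference of -1.05 ± 0.16. DKK1, a secreted inhibitor of Wnt signalling, had 7.91, 8.12 and 8.06 in the TRβ1 pool, against 8.78, 8.81 and 8.85 in the control pool, and differed by -0.78 ± 0.10. These 3 genes did not overlap between the pools and passed without the block too, as did CDCA7L, a protein that binds MYC, at -0.94 ± 0.12. HAMP, which encodes the iron-regulating hormone hepcidin, had 7.31, 5.85 and 5.96 in the TRβ1 pool, against 8.36, 6.53 and 6.94 in the control pool. The pools overlapped because replicate 1 was the highest in both, while within pairs the TRβ1 value was lower 3 times of 3, with a difference of -0.90 ± 0.12 (adjusted p = 0.0014 in limma, 1.0 without the block). AGR2, a protein disulfide isomerase, differed by -1.14 ± 0.19, PCOLCE2, an enhancer of procollagen processing, by -0.92 ± 0.10, ADH4, an alcohol dehydrogenase, by -0.77 ± 0.15, and SLC19A3, a thiamine transporter, by -0.73 ± 0.13. KRTAP3-1 differed by -0.79 ± 0.10, PLAAT3, a phospholipase, by -0.73 ± 0.13, SPTSSB, a small subunit of serine palmitoyltransferase, by -0.72 ± 0.10, and DPYD, which degrades pyrimidines, by -0.66 ± 0.12. None of these 8 passed without the block, with adjusted p between 0.084 for DPYD and 1.0 for PCOLCE2, ADH4 and PLAAT3. Of the 30 leading genes, 15 in each direction, 15 passed without the block.

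The same pools on T3 gave a second set of 6 arrays. Its calls share the model and its block and variance estimates with the vehicle calls, so they are not an independent repeat. There 179 features (0.871%) differed, 108 (0.526%) higher and 71 (0.346%) lower in the TRβ1 pool, and 32 (0.156%) did so without the block. Leaving out TRβ1 T3 replicates 1, 2 and 3 gave 81, 80 and 91, and leaving out control T3 replicates 1, 2 and 3 gave 203, 73 and 80. Without control T3 replicate 1 the balance of directions turned, with 88 higher and 115 lower. Without all arrays of replicate number 1 it also turned, with 40 higher and 53 lower. The count called on both, given next, was 51 to 84 with single arrays left out. It was 27 in fits to only the arrays of the 2 groups compared. Of the 151 features called on vehicle, 146 differed in the same direction on T3, 136 of them in 3 of 3 pairs (30.2% of all features had 1 sign in 3 of 3 pairs on T3), and 85 (0.414% of all) were called on both, 59 (0.287%) higher and 26 (0.127%) lower. Those 85 make up 56.3% of the features called on vehicle and 47.5% of those called on T3. SPINK1 had 9.67, 7.02 and 6.47 in the TRβ1 T3 arrays, against 5.25, 4.12 and 4.14 in the control T3 arrays, or a difference of 3.21 ± 0.36. VCAN differed by 1.55 ± 0.16, UGT2B4 by 1.55 ± 0.15, BICC1 by -1.45 ± 0.20, AGR2 by -1.55 ± 0.19 and PROM1 by -1.42 ± 0.16 on T3. SPINK1 and AGR2 did not pass there without the block. Of the 30 leading genes, 27 were called on T3, and the other 3 were ODAM (0.58, adjusted p = 0.068), HAMP (-0.53, adjusted p = 0.058) and CYP24A1. The differences on vehicle and on T3 were set against each other for every feature in the interaction of pool and hormone, and 0 features passed in limma, with or without the block, while 835 with the block and 275 without it had an unadjusted p under 0.05. The 5 called features whose estimate changed sign on T3 were chosen by that sign and are named here only for that reason. They are the microRNA gene MIR31, the small nucleolar RNA gene SNORD116-13, KCNIP2, ZNF470 and a feature shared by the GOLGA6 family.

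**Figure D2:**
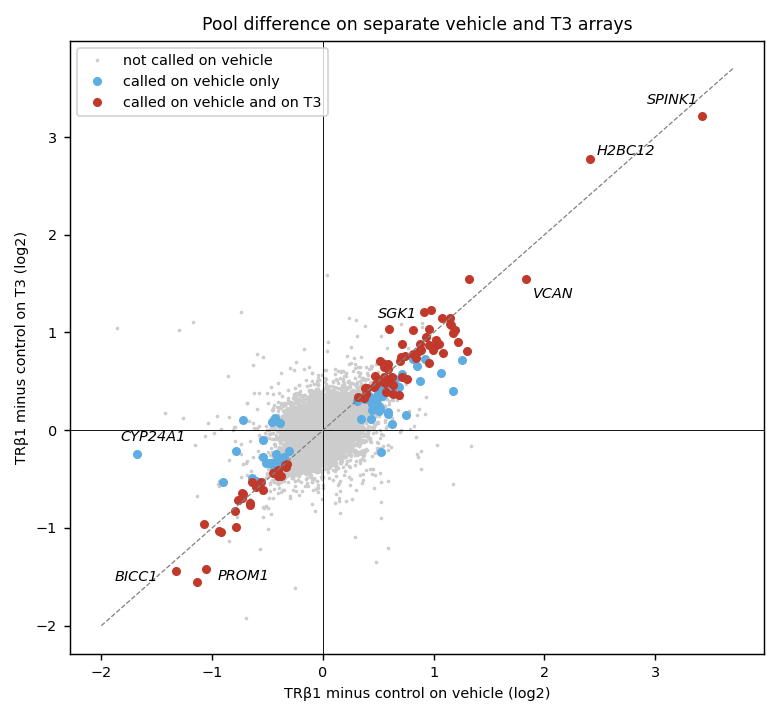
Difference between the TRβ1 and control pools on vehicle (x axis, log2) and on T3 (y axis, log2), 1 point for each of the 20546 features, with the line of equal differences dashed. Of the 151 features called on vehicle, the 85 also called on T3 (red) lie near the dashed line, and CYP24A1 (-1.68 on vehicle, -0.25 on T3) lies farthest from it among the called features.

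Among the called features CYP24A1 had the largest change of the pool difference between vehicle and T3. In the T3 arrays it stood at 7.22, 7.04 and 6.23 in the TRβ1 pool, against 7.42, 6.92 and 6.90 in the control pool, or a difference of -0.25 ± 0.15 (adjusted p = 0.551). The pools overlapped there. Within the TRβ1 pool T3 raised CYP24A1 by 1.83 ± 0.15 (adjusted p = 1.2e-05 in limma), and in the control pool the change was 0.40 ± 0.15 (adjusted p = 0.748). The difference between these responses was 1.43, with a 95% interval of 0.99 to 1.87 and an unadjusted p of 5.5e-06, which did not pass over all features (adjusted p = 0.113). In the TRα1 pool on vehicle CYP24A1 differed by -1.04 from the control arrays, which both comparisons share (adjusted p = 0.0012, 0.343 without the block).

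Whether genes that T3 raises were lower with unliganded TRβ1 was read on a set chosen by the T3 response of the TRα1 pool. The TRα1 arrays belong to neither pool compared, but they share the model and its block and variance estimates with that comparison. In the TRα1 pool 120 features (0.584%) were higher and 17 (0.0827%) lower on T3 than on vehicle in limma with the block. On vehicle, the TRβ1 minus control difference of these 120 had a median of -0.04, with 70 below and 50 above 0. Over all tested features the median was -0.0035 and 48.8% were above 0. An unadjusted p under 0.05 in limma was seen for 28 of the 120, and for 10.8% of all features. Of the 120, 1 was called lower in the TRβ1 pool on vehicle, CYP24A1, and 3 were called higher, beside 0.229% lower and 0.506% higher of all features. The higher ones were SGK1, a serine/threonine kinase, at 0.59 ± 0.11, CYP3A5, a drug-metabolizing cytochrome P450, at 0.53 ± 0.10, and ENPP2, the enzyme autotaxin, at 0.98 ± 0.10. Of these 4, CYP24A1 and ENPP2 passed without the block. On the T3 arrays the same 120 had a median difference of 0.21, with 98 above 0, 17 called higher and 1 called lower, beside 0.526% higher and 0.346% lower of all features. PCK1, a key enzyme of gluconeogenesis, differed by 0.04 ± 0.19 on vehicle and by 1.59 ± 0.19 on T3. FYN, a Src family kinase, differed by 0.04 ± 0.10 on vehicle and by 0.81 ± 0.10 on T3, and PTAFR, which binds platelet-activating factor, by -0.17 ± 0.11 on vehicle and by 0.84 ± 0.11 on T3. For these 3 genes, chosen after their values were seen, the vehicle difference did not pass and the T3 difference did, in PTAFR with the block only (adjusted p = 0.066 without it). The 17 features that T3 lowered there showed a vehicle median of 0.06 and 0 members called in limma with or without the block, with 6 at an unadjusted p under 0.05.

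The members of 46 gene lists were read next. They matched 701 distinct genes, of which 24 were called on vehicle, 16 higher and 8 lower, beside 0.506% and 0.229% of all features. The lists were chosen with earlier results of these data known, so these counts are a description. Among the receptor's own partners, 0 of 5 receptor and RXR genes and 0 of 10 coactivator genes were called in limma, at medians of 0.01 and -0.03, and each list had 2 members at an unadjusted p under 0.05. Of 8 corepressor complex genes 1 was, HDAC1, a histone deacetylase, at 10.16, 10.02 and 10.08 in the TRβ1 pool, against 10.38, 10.43 and 10.58 in the control pool. The groups were separate, and the difference was small, -0.38 ± 0.08 (adjusted p = 0.036, 0.385 without the block).

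Of 12 carriers, transporters and deiodinases of thyroid hormone, 1 was higher and 1 lower. SERPINA7, the thyroxine-binding globulin, had 10.40, 9.52 and 9.58 in the TRβ1 pool, against 10.01, 9.07 and 9.04 in the control pool, or a difference of 0.46 ± 0.07 within pairs although the pools overlapped. DIO1 had 7.19, 7.24 and 7.16 in the TRβ1 pool, against 7.76, 7.57 and 7.49 in the control pool, or a difference of -0.41 ± 0.09 with no overlap. On T3 the DIO1 difference was -0.43 ± 0.09. Neither gene passed on vehicle without the block (adjusted p = 1.0 for SERPINA7 and 0.880 for DIO1), nor did DIO1 on T3 (0.782). These were also the 2 called members of the 26 measured textbook thyroid hormone responsive genes, whose median was -0.01 with 13 above 0.

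Metabolic lists are given beside the 0.735% of all tested features that were called on vehicle. Of 13 cholesterol synthesis and uptake genes all had an estimate above 0, between 0.03 and 0.48, with a median of 0.15, and 0 were called in limma, 7 having an unadjusted p under 0.05 (10.8% of all features did). On T3 the median was 0.10 and 1 was called higher. Of 16 lipogenesis genes ELOVL6, a fatty acid elongase, was higher by 0.63 ± 0.09. Of 14 bile acid genes BAAT was the 1 called. Of 21 genes of xenobiotic and steroid metabolism CYP3A5 was higher and ADH4 lower. The 11 gluconeogenesis and glycogen genes, the 13 of fatty acid oxidation, the 15 of apolipoproteins and the 23 of coagulation had 0 called members on vehicle in limma, with 2, 4, 3 and 7 at an unadjusted p under 0.05, where 10.8% of all features stood.

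Among 25 acute phase and complement genes HPX, the haem carrier hemopexin, was higher by 0.96 ± 0.18 and the complement component C6 by 0.59 ± 0.12, while HAMP was lower. Among 33 genes of extracellular matrix and integrins VCAN and SPARC, a matrix glycoprotein, were higher. SPARC had 8.11, 7.72 and 7.98 in the TRβ1 pool, against 7.53, 6.69 and 6.96 in the control pool, or a difference of 0.87 ± 0.17. MMP3, a matrix metalloproteinase, was higher by 0.93 ± 0.18, MYL9, a myosin light chain, by 0.70 ± 0.12, FGF2, a fibroblast growth factor, by 0.38 ± 0.08, and HMOX1, the haem oxygenase, by 0.55 ± 0.08. Among 14 hepatoblast and progenitor markers SPINK1 was higher, and PROM1 and GPC3, the proteoglycan glypican-3, were lower (GPC3 differed by -0.54 ± 0.09). SPP1, the matrix protein osteopontin and 1 of 7 cholangiocyte markers, was higher by 0.81 ± 0.18. HPX, C6, SPARC, MMP3, MYL9, FGF2, HMOX1, GPC3 and SPP1 did not pass without the block, nor did ELOVL6 and CYP3A5. Of 26 interferon response genes MX2 and MX1, antiviral GTPases, were higher. MX2 had 7.66, 7.75 and 7.84 in the TRβ1 pool, against 6.97, 7.07 and 7.12 in the control pool, or a difference of 0.70 ± 0.07 that passed without the block as well (adjusted p = 0.0093). MX1 differed by 0.56 ± 0.11 (adjusted p = 0.023, 0.144 without the block), and the other 24 measured members did not pass. The cell cycle list had 28 measured and 0 called members in limma, 5 with an unadjusted p under 0.05.

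**Figure D3:**
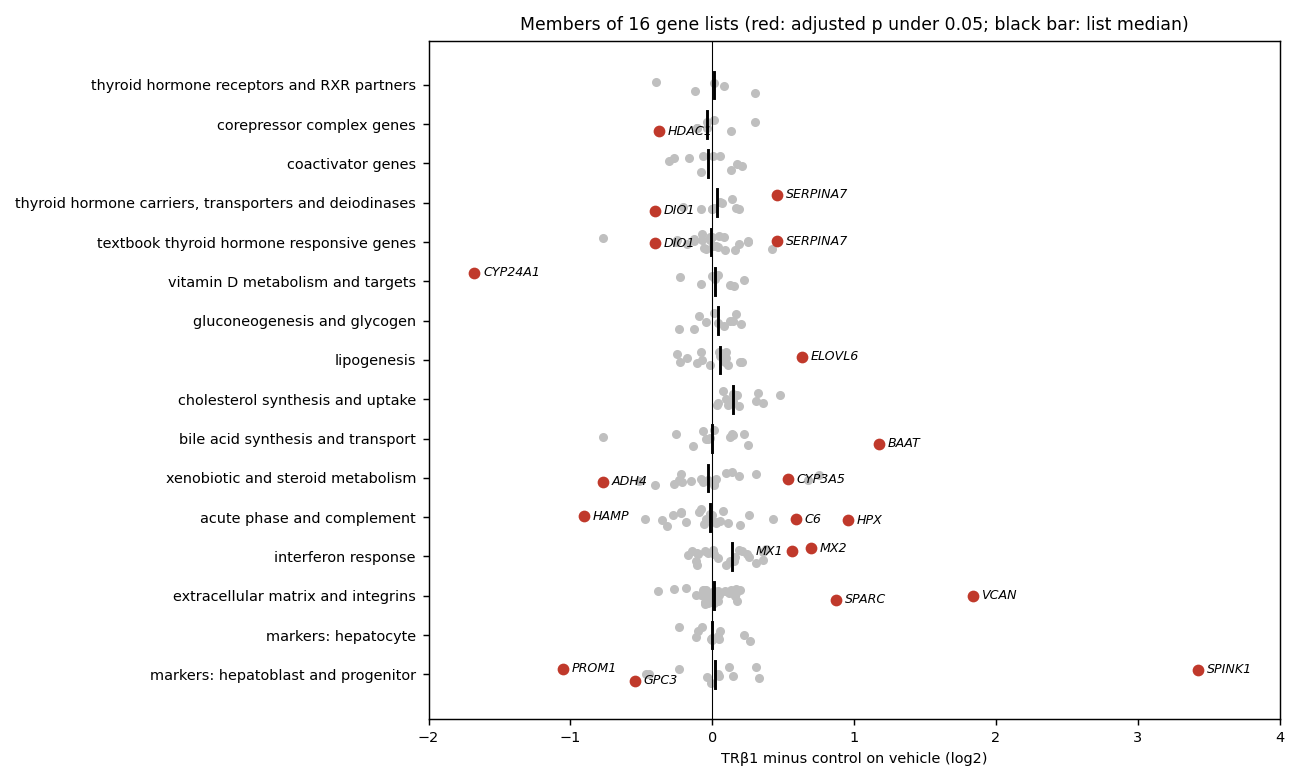
TRβ1 minus control difference on vehicle (x axis, log2) of every measured member of 16 of the 46 gene lists, with called members in red and each list's median as a black bar. List medians lie between -0.04 and 0.15, and single genes such as SPINK1, VCAN and CYP24A1 lie far from them.

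Set directly against the TRα1 pool on vehicle, the TRβ1 pool differed in 111 features (0.54% of those tested), 60 higher and 51 lower, and without the block in 0, with 593 at an unadjusted p under 0.05. A fit to only the arrays of these pools called 20, of which 7 were higher and 13 lower. Without TRβ1 vehicle replicates 1, 2 and 3 it was 53, 62 and 41, and without all arrays of 1 replicate number 1 to 7. Of the 151 features that differed from the control, 96 were also called with the same sign in TRα1 minus control, with the block. Over all features, TRα1 minus control called 425 (2.07%), 284 higher and 141 lower, with the block, and 63 (0.307%) without it. That comparison shares the control arrays. In it 0 of the 151 were called with the opposite sign and 55 were not called, and 141 had an estimate of the same sign. Of the 151, 25 were among the 111. In 16 the TRβ1 pool was higher than both other pools and in 4 lower than both. In 4 it was above the control and below TRα1, and in 1, PROM1, below the control and above TRα1. The genes given here were chosen from these 25 after their values were seen. PPM1L, a protein phosphatase, had 6.32, 6.75 and 6.70 in the TRβ1 pool, against 5.56, 5.98 and 6.18 in the TRα1 pool and 5.59, 5.94 and 5.80 in the control pool. TRβ1 stood above both, by 0.69 ± 0.09 over TRα1 and 0.82 ± 0.09 over the control. Both differences passed with the block only (adjusted p = 0.642 and 0.268 in limma without it). HOMER2, a scaffold protein, had 7.14, 7.15 and 6.86 in the TRβ1 pool, against 6.44, 6.49 and 6.35 in the TRα1 pool and 6.49, 6.52 and 6.25 in the control pool. TRβ1 was again above both without overlap. Without the block neither difference of HOMER2 passed (adjusted p = 0.210 from TRα1 and 0.161 from the control). MATN3, the cartilage matrix protein matrilin-3, differed from TRα1 by 1.11 ± 0.15 and SGK1 by 0.88 ± 0.11. The MATN3 values overlapped those of both other pools, and neither of its differences passed without the block. UGT2A3, a further glucuronosyltransferase with 2 features, differed from TRα1 by 0.70 ± 0.11 in the called one and by 0.74 in the other (adjusted p = 0.072), BAAT by 0.62 ± 0.11 and MAT1A, which makes S-adenosylmethionine in the liver, by 0.37 ± 0.07. The values of BAAT and MAT1A overlapped those of TRα1.

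CDCA7L had 5.80, 5.42 and 5.64 in the TRβ1 pool, against 6.59, 6.25 and 6.56 in the TRα1 pool and 6.46, 6.33 and 6.89 in the control pool. TRβ1 was below every array of both. HAMP differed from TRα1 by -0.81 ± 0.12, with overlapping values, BHMT2, a methyltransferase, by -0.65 ± 0.10, and DKK1 by -0.55 ± 0.10. ENPP2 and CHN1 were intermediate. ENPP2 had 7.11, 7.01 and 7.35 in the TRβ1 pool, against 8.04, 7.87 and 8.14 in the TRα1 pool and 6.08, 6.11 and 6.35 in the control pool, so that no array of one pool reached the values of another. The TRα1 minus control comparison shares the control arrays. In it SPINK1 stood at 3.94, VCAN at 2.47, UGT2B4 at 1.86, BICC1 at -1.48 and PTGR1 at -0.90, beside 3.43, 1.83, 1.31, -1.33 and -1.08 for TRβ1 minus control. The TRβ1 minus TRα1 differences of these 5 genes were between -0.63 for VCAN and 0.15 for BICC1, and none passed.

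**Figure D4:**
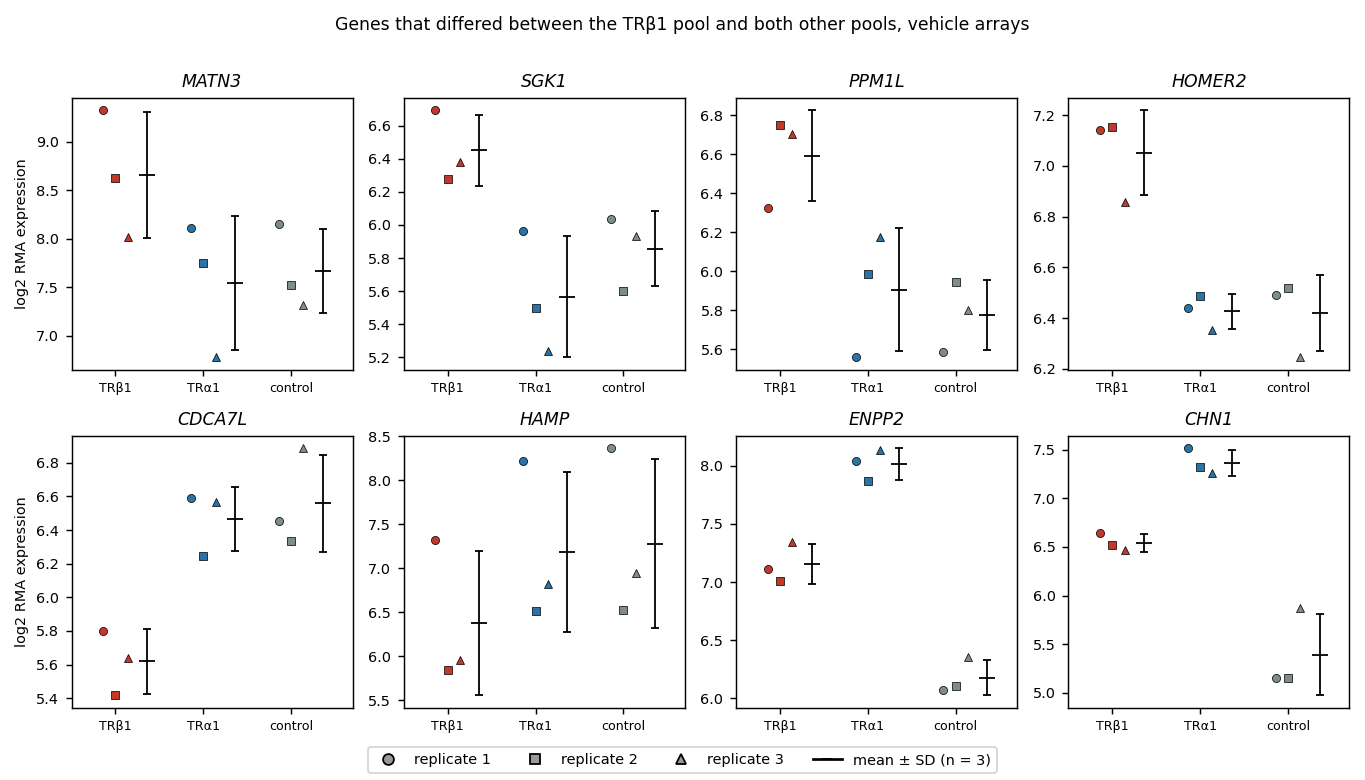
Log2 RMA expression of 8 genes in the TRβ1, TRα1 and control pools on vehicle, with single arrays as points shaped by replicate number and the mean and SD of 3 beside them. MATN3, SGK1, PPM1L and HOMER2 average highest and CDCA7L and HAMP lowest in the TRβ1 pool, and ENPP2 and CHN1 lie between the other pools.

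The called genes were not spread evenly over the chromosomes. With the genes brighter than the median feature put in the chromosome order of RefSeq and split into 228 windows of about 50 neighbours, 10 windows had a median below -0.08, and all 10 lay among the first 12 windows of chromosome 1. This stretch was picked after the values were seen, and runs from the start of the gene order to F3, the tissue factor gene. Its 600 genes had a median difference of -0.13 on vehicle, and 480 of them (80.0%) were below 0, beside 48.2% of all 11392 genes so ordered. The medians of the 3 pairs were -0.10, -0.10 and -0.19 on vehicle and -0.11, -0.13 and -0.21 on T3, so that each pair on separate arrays was shifted the same way. The 554 genes after it on chromosome 1 had a median of 0.01. All 15 genes called lower on chromosome 1 lay between ERRFI1 and DPYD in that order, 14 of them within the stretch and DPYD just beyond it. These are 34.1% of the 44 lower single-gene features that have a chromosome, on a chromosome with 10.1% of the features. They include HDAC1 and DIO1. MTOR, the nutrient-sensing kinase, at -0.44 ± 0.09, and SPEN, a corepressor that works with histone deacetylases, at -0.52 ± 0.09, were picked from the 15 after their values were seen, and neither passed without the block (adjusted p = 1.0 for each). The TRβ1 minus TRα1 median of the stretch was -0.01, while TRα1 minus control, with shared control arrays, was -0.11. The part of this regional shift in the HDAC1 and DIO1 differences was not tested.

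Chromosome 21 went the other way. All 11 of its called features were higher, 11.3% of the 97 higher single-gene features, on a chromosome with 1.28% of the features. The window from RIPPLY3 to PRMT2, 73 genes, had the highest median of the 228, at 0.17 on vehicle and 0.22 on T3. On vehicle 54 of the 73 were above 0, and the pair medians were 0.21, 0.17 and 0.15. On T3 they were 0.16, 0.18 and 0.28. The TRβ1 minus TRα1 median of this window on vehicle was 0.01, while TRα1 minus control, with shared control arrays, was 0.17. The first 50 genes of the chromosome had a median of 0.02. MX2 and MX1 lie in the higher window. So do ITGB2, an integrin of leukocytes, at 0.47, and RRP1B, a nucleolar protein, at 0.41, both picked after their values were seen and neither called without the block (adjusted p = 0.268 and 1.0). In TRα1 minus control on vehicle MX2 stood at 0.66 and MX1 at 0.51. The part of the regional shift in the MX1 and MX2 differences was not tested. A median above 0.08 was also found in 2 windows of chromosome 20, 3 of chromosome 16 and 2 of chromosome 19. The first window of chromosome 20 reached 0.15 on vehicle and 0.14 on T3.

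**Figure D5:**
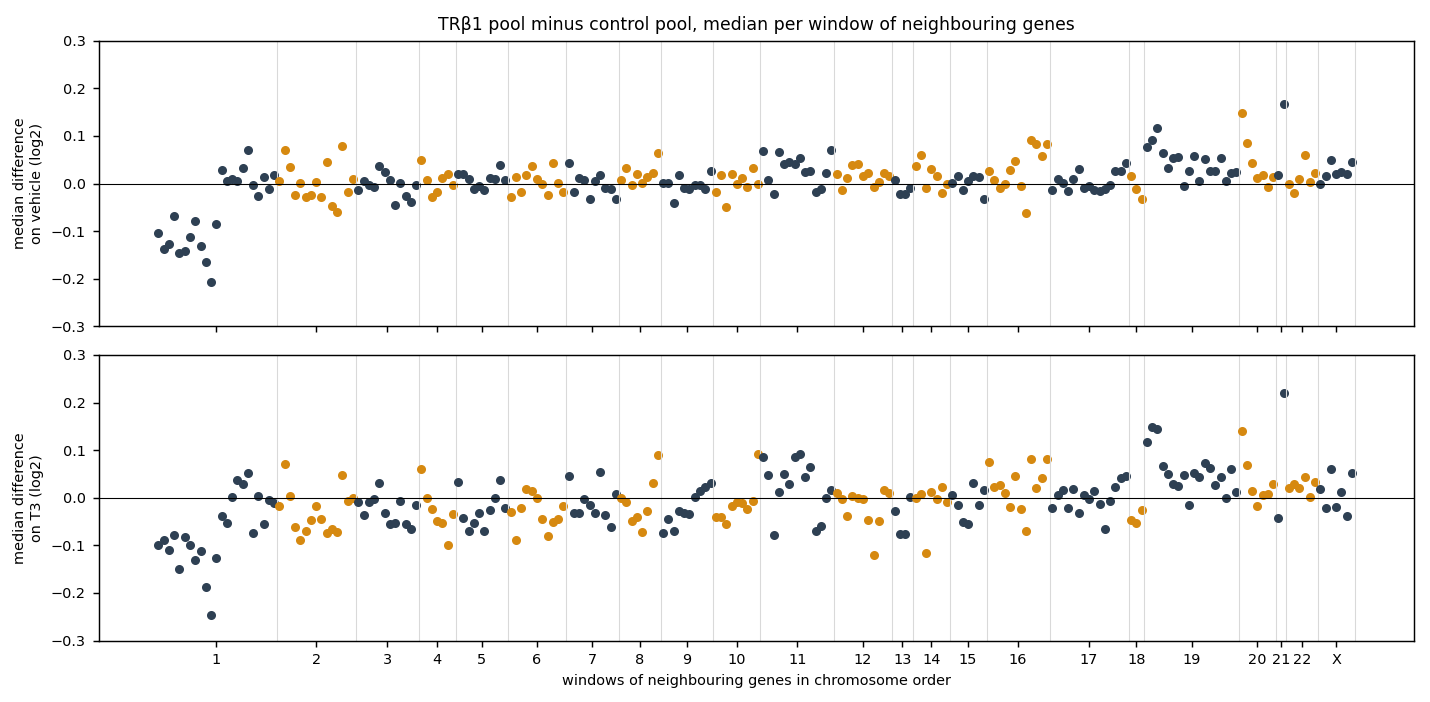
Median TRβ1 minus control difference (y axis, log2) in windows of about 50 neighbouring genes in chromosome order (x axis, chromosomes 1 to 22 and X in alternating colours), on vehicle above and on T3 below. The first 12 windows of chromosome 1 lie below 0 and the second window of chromosome 21 (0.17 and 0.22) lies above all others.

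Promoters of called genes were searched for the half-site that thyroid hormone receptors bind, AGGTCA, on both strands, in 300-base windows around the RefSeq gene starts (GRCh38.p14). It was present in 9 of 73 promoters of genes called higher (12.3%) and in 5 of 38 of genes called lower (13.2%), beside 11.1% of the 14212 promoters matched to tested genes and 13.9% of all 27195. The direct repeat, AGGTCA followed by AGGTCA after 4 bases of any kind, which contains the half-site 2 times, was in 0 promoters of called genes and in 5 of all. Shown are DIO1, the deiodinase that was lower, CDCA7L, lower than in both other pools, SULT1C2 and KLHL13, the genes with the largest increases among those with a half-site, and SPINK1, the largest difference, in which the half-site was not found. Capitals mark the half-site, read as TGACCT where it lies on the other strand. The windows are chr1:53893937-53894236 (+ strand) for DIO1, chr7:21945850-21946149 (- strand) for CDCA7L, chr2:108288645-108288944 (+ strand) for SULT1C2, chrX:118116761-118117060 (- strand) for KLHL13 and chr5:147831622-147831921 (- strand) for SPINK1.
DIO1: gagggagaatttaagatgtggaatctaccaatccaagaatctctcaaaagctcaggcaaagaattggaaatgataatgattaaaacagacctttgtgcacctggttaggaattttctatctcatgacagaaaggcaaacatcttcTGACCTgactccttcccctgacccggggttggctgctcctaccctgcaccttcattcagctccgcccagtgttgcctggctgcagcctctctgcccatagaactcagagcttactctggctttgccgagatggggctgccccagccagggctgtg
CDCA7L: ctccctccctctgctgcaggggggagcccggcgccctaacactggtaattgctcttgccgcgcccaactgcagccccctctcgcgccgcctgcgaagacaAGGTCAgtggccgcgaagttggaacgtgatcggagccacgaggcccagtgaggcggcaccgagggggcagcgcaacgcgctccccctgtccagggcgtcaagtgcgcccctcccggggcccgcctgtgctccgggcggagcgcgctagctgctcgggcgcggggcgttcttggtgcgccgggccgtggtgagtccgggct
SULT1C2: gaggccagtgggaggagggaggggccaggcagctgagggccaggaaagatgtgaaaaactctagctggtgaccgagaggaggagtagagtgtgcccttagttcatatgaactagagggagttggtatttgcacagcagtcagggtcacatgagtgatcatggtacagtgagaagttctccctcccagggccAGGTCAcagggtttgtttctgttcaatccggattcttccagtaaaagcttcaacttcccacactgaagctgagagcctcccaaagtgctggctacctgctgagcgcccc
KLHL13: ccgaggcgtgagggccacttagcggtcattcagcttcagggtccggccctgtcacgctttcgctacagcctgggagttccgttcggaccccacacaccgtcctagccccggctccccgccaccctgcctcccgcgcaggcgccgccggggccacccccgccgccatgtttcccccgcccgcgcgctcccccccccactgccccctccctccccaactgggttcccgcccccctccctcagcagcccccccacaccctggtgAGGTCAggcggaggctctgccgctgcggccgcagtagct
SPINK1: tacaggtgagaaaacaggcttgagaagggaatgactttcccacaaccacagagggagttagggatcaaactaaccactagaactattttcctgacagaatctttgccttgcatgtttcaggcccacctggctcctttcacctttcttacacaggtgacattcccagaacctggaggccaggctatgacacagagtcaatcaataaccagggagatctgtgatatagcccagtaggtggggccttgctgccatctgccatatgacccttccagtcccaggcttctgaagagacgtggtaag
The half-site begins 105 bases before the annotated start in DIO1, 150 bases before it in CDCA7L and 59 bases before it in SULT1C2, and just after the start in KLHL13. These matches describe the letters of the windows. Genes with the half-site differed in both directions, DIO1 by -0.41 and CDCA7L by -0.94, SULT1C2 by 1.22 and KLHL13 by 1.19.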

How the data were processed

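RNA from 18 HepG2 cultures, amplified and labelled from 200 ng of total RNA, was read on single-colour arrays. The deposited values are log2 expression per feature, which the authors computed by RMA, a method that corrects background, equalizes array distributions and summarizes probes; the submitters' processing notes name R 2.7.1. Array medians ranged from 5.31 to 5.49. Arrays have no read depth, and 3 per group limits the precision (median SE of the difference 0.107). The genome build is not given in the sources used here.

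A linear model with the 6 groups and the replicate number as a block was fitted to all 18 arrays with limma 3.58.1 in R 4.3.3, with two-sided Benjamini-Hochberg adjustment over the 20546 features that carry a gene symbol and a threshold of 0.05. A feature past it is called. The table has 32321 features; 11775 without a symbol were tested only as an alternative. The pairing was taken from the replicate numbers in the array titles. After removal of group means, all 45 pairs of arrays with the same number correlated above 0.1 (lowest 0.259). On the main axis of variation (49.2% of the variance) number 1 lay at -39.2 to -32.3, number 2 at 12.0 to 20.4 and number 3 at 14.3 to 22.6. A split of number 1 from the others gives such correlations by itself. They therefore cannot show that 2 pairs with 2 and 3 with 3. The text gives counts without the block beside the main counts, and says which vehicle differences of the 30 leading genes and of the called list members passed without it.

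Genes named are the 15 largest called single-gene differences in each direction with the same sign in 3 of 3 pairs, up to 8 in each direction called on vehicle and T3, THRA and THRB, and called list members (up to 6 per list); others are said to be chosen after their values were seen. The chromosome windows and stretches were added after the data were seen. Members and gene lists were chosen with earlier results of these data known. The model was also tested on simulated data. RefSeq (GRCh38.p14) gave chromosomes and gene order for names matched by gene ID (20501 of 20546 features).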

Additional observations from a re-analysis of the deposited data

Results flagged for a closer look

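The 206 features called on vehicle or named by rule were searched for a TRβ1 minus control difference with one sign in all 3 pairs on vehicle and the opposite sign in all 3 pairs on T3. It was found in 4 of them (1.94%), beside 414 (2.01%) of all tested features. Since they were chosen by that sign change, their values are a description. For SNORD116-13 the difference was 0.52 on vehicle and -0.22 on T3, a change of -0.74. For KCNIP2, a potassium channel-interacting protein, it was -0.43 on vehicle and 0.13 on T3, a change of 0.56. CXCL10, a chemokine, changed by 0.27 and SPRY2, an inhibitor of growth factor signalling, by -0.30. In the test over all features, limma called 0 such changes, with 835 features at an unadjusted p under 0.05.

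Among the 11775 features without a gene symbol, 7 differed between the TRβ1 and control pools on vehicle when all 32321 features were tested, 4 higher and 3 lower.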

How the results depend on the processing

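The counts of called features depended on the model. With the replicate block they were 151 on vehicle, 179 on T3, 85 on both and 111 for TRβ1 against TRα1. Without the replicate block they were 24, 32, 20 and 0. With only the arrays of the 2 groups compared they were 49, 48, 27 and 20. With all features tested, those with a symbol gave 79, 99, 53 and 56. A trended and robust prior gave 295 on T3 and 172 against TRα1, and array weights gave 221 against TRα1; both gave vehicle counts within 1.5 times of 151, as did features above the median level only and centred arrays. Leaving out arrays, singly or a whole replicate number, gave 27 to 154 on vehicle, 25 to 203 on T3, 15 to 84 on both and 1 to 112 against TRα1. Over 22 settings, 8 of 46 called named genes never lost their call where tested: CPED1, CYP24A1, MX2, OLFML1, PRKCH, PTGR1, UGT2B4 and VCAN. The fit to features above the median level held 38 of the 46, and OLFML1 was tested in 21 settings. None of the 46 reversed. With arrays left out THRA, near 0, ranged from -0.038 to 0.075 and ALAS2, an erythroid marker, from -0.024 to 0.157. The cause of these changes was not tested.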
